A study of Homo sapiens with 9 samples.

Results

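The 48 genes described here encode the machinery that copies DNA and the enzymes that supply its building blocks. They were chosen as a list of gene symbols and found in the deposited count table by Ensembl identifier, and all 48 of 48 were present among the 60675 genes of the table. The cells were SW1783, a single human astrocytoma line kept in L-15 with 10% serum, and each treatment lasted 24 h. The treatments were 70% ethanol extracts of Poria Cocos, a fungus, and of Atractylodis Rhizoma, a plant rhizome, each at 20, 100 and 500 µg/mL with 1 library per dose, set against 3 libraries of cells given DMSO as vehicle. DMSO in the vehicle is 0.1% by the sample labels and 2% by the series design, and the DMSO content of the treated cultures is not stated in the labels. The labels do not say that libraries came from separate cultures, so the p-values cover no more than the spread among these samples, and that spread may be technical.

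Replication starts at origins, where the origin recognition complex, CDC6 and CDT1 load the MCM helicase during G1, a step called licensing. In S phase CDC45 and GINS activate that helicase, PCNA clamps the polymerases to DNA, and ribonucleotide reductase, thymidylate synthase and thymidine kinase supply deoxynucleotides. Many of these genes are activated by E2F transcription factors at the G1 to S transition, so their transcripts are widely read as a measure of how much of a culture is in or near S phase.

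Promoter windows of 3 of the genes are printed to show the letters that E2F factors are known to bind. RefSeq promoters (GRCh38.p14, 250 bases before to 50 after the start of the gene) were matched for 41 of the 48 genes, and no entry was matched for CCNE2, DSCC1, GINS4, MCM4, MCM5, RPA2 and RPA3. The E2F letters searched on both strands, overlaps allowed, were TTTCCCGC, TTTCGCGC, TTTGCCGC and TTTGGCGC. The 41 genes had 55 promoter entries, since some have several starts, and a gene was counted if any of its entries held the letters. They occurred for 22 of the 41 genes, or 53.7%, against 1090 of 27305 genes with a promoter, or 3.99%. The letters CCAAT occurred in 23 of the 41, or 56.1%, against 39.7% of all genes. The windows below lie upstream of the first exon and run 5′ to 3′ on the strand of the gene, with E2F letters in capitals. They are MCM6 at chr2:135876444-135876603 (minus strand), PCNA at chr20:5126627-5126785 (minus strand) and E2F1 at chr20:33686405-33686564 (minus strand).
MCM6: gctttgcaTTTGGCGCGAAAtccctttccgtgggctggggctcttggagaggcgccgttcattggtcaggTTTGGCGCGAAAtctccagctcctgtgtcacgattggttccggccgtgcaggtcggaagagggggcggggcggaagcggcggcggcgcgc
PCNA: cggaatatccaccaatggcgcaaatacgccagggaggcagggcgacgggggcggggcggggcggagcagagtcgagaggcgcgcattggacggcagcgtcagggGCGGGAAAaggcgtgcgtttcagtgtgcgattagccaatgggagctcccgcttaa
E2F1: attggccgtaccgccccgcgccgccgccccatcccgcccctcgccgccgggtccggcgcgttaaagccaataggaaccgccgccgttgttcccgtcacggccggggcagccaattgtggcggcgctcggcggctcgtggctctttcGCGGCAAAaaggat
MCM6 holds 4 matches that overlap in pairs, and the PCNA and E2F1 windows hold 1 match each. These matches are letters in a window and say nothing of binding in these cells. Of the 22 genes with E2F letters, 4 rose and 2 fell in treated against vehicle cells, and of the 19 without, 3 rose and 3 fell. Of the 7 genes with no promoter entry 1 rose and 0 fell. Among all tested genes 12% rose and 13.3% fell, and no result about the letters is drawn from these small counts.

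Library totals ran from 40269665 to 48905536 counts, mitochondrial transcripts took 5.38% to 6.97% of counts, and the 48 genes together took 0.252% to 0.287%. A chi-square comparison of counts between pairs of libraries gave 2.44 to 3.40 per degree of freedom among the vehicle libraries, so none was a copy of another. The Poria 20 and Atractylodis 100 libraries differed by 3.47, about as little as vehicle replicates, while every other pair with a treated library differed by at least 7.82. Whether these 2 libraries carry their right labels cannot be checked from these files, and every dose slope and every comparison of the extracts below rests on those labels. Without both libraries, a choice made after seeing the data, the 48 genes gave 6 calls in treated against vehicle (4 rose and 2 fell, against 13 with all libraries), 4 in the Poria trend and 13 in the Atractylodis trend. The share over all tested genes without these libraries is not given here, so these counts are no result about the set. Of 8 astrocyte markers, GFAP, S100B, AQP4 and ALDH1L1 were too low to test in any group, and SLC1A2 had 0.34 CPM or less in every library. SOX9 and GJA1 were expressed, at 83.8 ± 0.899 and 256 ± 3.22 CPM in vehicle cells (SD, n = 3), and made up most of the summed level of the 8 markers, which was 293 to 346 CPM in treated and 357 to 366 CPM in vehicle libraries. SLC1A3, an astrocyte glutamate transporter, went the other way, at 25.0 to 27.1 CPM in treated and 21.0 to 22.0 CPM in vehicle libraries (log2 change 0.28 ± 0.05, adjusted p = 0.00036). The sum of 6 mesenchymal markers, most of it COL1A1, was 5570 to 6670 CPM in treated and 6950 to 7020 CPM in vehicle libraries. COL1A1, THY1 and TAGLN lay below every vehicle library in all 6 treated libraries. THY1 had 397 to 472 CPM in treated and 518 to 535 CPM in vehicle libraries, and TAGLN 228 to 270 and 351 to 366 CPM. In contrast, COL1A2 was above vehicle in 5 of the 6 treated libraries and PDGFRB changed by 0.01 on the log2 scale. COL3A1 had 28.5 to 36.7 CPM in treated and 28.9 to 31.8 CPM in vehicle libraries. Sums of 5 markers each were 131 to 162 CPM in treated and 173 to 181 CPM in vehicle libraries for myeloid cells, and 127 to 230 CPM in treated and 239 to 246 CPM in vehicle libraries for epithelial cells. They were 160 to 194 CPM in treated and 179 to 182 CPM in vehicle libraries for neurons, and 32.1 to 40 CPM in treated and 29 to 31.1 CPM in vehicle libraries for endothelium. Most of each sum came from a single gene: CD68 for myeloid cells, KRT18 for epithelial cells, TUBB3 for neurons and KDR for endothelium. PTPRC, another myeloid marker, ran from 7.13 to 11.4 CPM in treated and 8.37 to 9.17 CPM in vehicle libraries. AIF1, EPCAM, CDH1, CDH5, VWF and CLDN5 were too low to test. The part of these shifts in the results below was not tested.

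Levels are given as CPM, the usual count normalised to sequencing depth, here with the library total multiplied by its TMM factor. Vehicle levels of the 48 genes ran from 5.10 CPM for E2F2 to 224 CPM for RRM2, and the median coefficient of variation among the vehicle libraries was 2.80%, against 2.93% for 10321 genes in the same range of CPM. Per kilobase of the longest transcript, PCNA was the highest at 93.8 CPM per kb, followed by MCM7 at 61.1 and RRM2 at 61.0, and E2F2 was the lowest at 0.983. Changes are log2 differences ± SE from the edgeR quasi-likelihood test, with Benjamini-Hochberg adjustment over 18356 tested genes and a threshold of 0.05. All 48 genes passed the filter on low counts.

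With all 6 treated libraries set against the 3 vehicle libraries, 8 of the 48 genes rose and 5 fell, so that 13 genes, or 27.1%, passed the threshold, against 25.3% of all tested genes. By direction, 16.7% of the 48 genes rose against 12% of all genes, and 10.4% fell against 13.3%. These shares are near the background and are not a result about the set. The median change was 0.002 over the 48 genes and 0.0137 over all genes. In bulk RNA, fewer cells in S phase and less RNA per cell cannot be told apart. The genes that rose were DUT, DSCC1, PRIM2, RFC4, MCM6, PRIM1, GINS1 and PCNA, and those that fell were TK1, SLBP, CDT1, CHAF1A and MCM7. All 6 treated libraries lay above all 3 vehicle libraries for 5 genes (12.4% of all genes did so) and below them for 4 (13.7%). In the paragraphs by role that follow, rising, falling and passing refer to treated against vehicle unless another comparison is named.

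**Figure D1:**
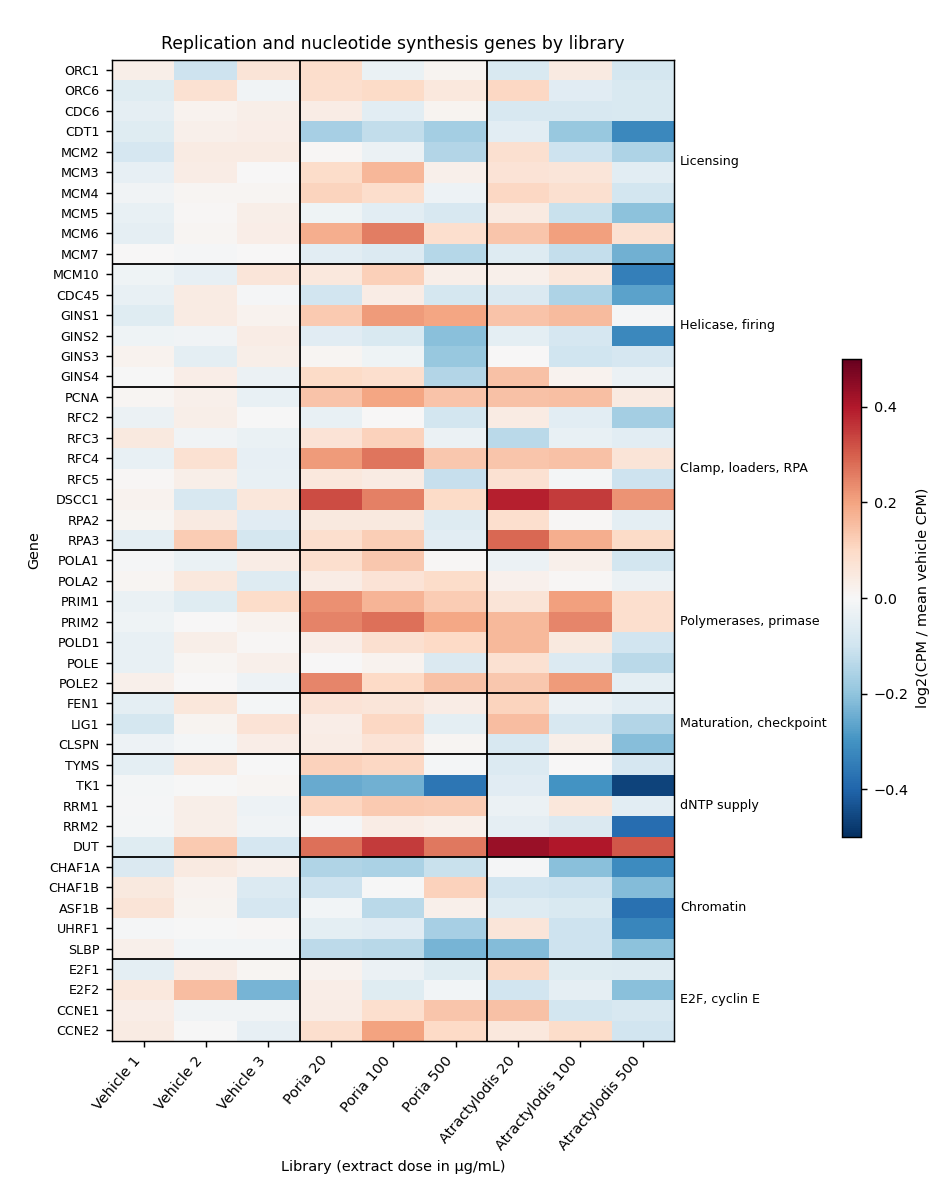
Level of each of the 48 genes (rows, by role) in each of the 9 libraries (columns, dose in µg/mL), as log2 of CPM over the mean vehicle CPM, red above and blue below vehicle. The Atractylodis 500 column is the bluest and is the lowest of the 9 libraries for 28 genes.

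Among the 10 licensing genes, MCM6 rose and CDT1 and MCM7 fell in treated against vehicle cells. MCM6, a subunit of the helicase ring, had 45.7, 47.4 and 48.2 CPM in vehicle, 53.4, 56.2 and 49.9 CPM under Poria at 20, 100 and 500 µg/mL, and 51.8, 54.3 and 49.6 CPM under Atractylodis at the same doses. Every treated library exceeded every vehicle library, and the change was 0.16 ± 0.04, adjusted p = 0.015. MCM7, another subunit of the same ring, had 189, 188 and 189 CPM in vehicle, 181, 179.6 and 171 CPM under Poria at 20, 100 and 500 µg/mL, and 180.3, 173 and 159.7 CPM under Atractylodis at the same doses. Here every treated library lay below every vehicle library, and the Atractylodis 500 library was the lowest, with a change of -0.11 ± 0.04, adjusted p = 0.047. Both calls, one in each direction within a single complex, were lost with GC offsets, described below.

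CDT1, the loading factor that brings MCM to origins, had 28.7, 30.5 and 30.7 CPM in vehicle, 26.7, 27.5 and 26.6 CPM under Poria at 20, 100 and 500 µg/mL, and 28.9, 26.3 and 23.9 CPM under Atractylodis at the same doses. Atractylodis 20 overlapped the vehicle libraries and Atractylodis 500 was the lowest, and the change was -0.17 ± 0.05, adjusted p = 0.026. MCM2, a further helicase subunit and a common proliferation marker, had 38.9, 42.3 and 42.3 CPM in vehicle, 41.4, 40.3 and 37.2 CPM under Poria at 20, 100 and 500 µg/mL, and 43.5, 38.3 and 37.0 CPM under Atractylodis at the same doses. Its treated and vehicle libraries overlapped, with a change of -0.06 ± 0.05, adjusted p = 0.49. CDC6, which works with CDT1 at the origin, had 84.4, 88.2 and 89.0 CPM in vehicle, 89.5, 84.1 and 88.0 CPM under Poria at 20, 100 and 500 µg/mL, and 82.4, 82.5 and 82.7 CPM under Atractylodis at the same doses, and its groups also overlapped (-0.04 ± 0.04, adjusted p = 0.5). The remaining licensing genes, ORC1, ORC6, MCM3, MCM4 and MCM5, had changes between -0.07 (MCM5) and 0.06 (MCM3), and none passed the threshold. Calls for MCM7, CDT1 and MCM6 were lost when single libraries were left out, at an adjusted p of up to 0.13 for MCM7 without vehicle replicate 3, 0.11 for CDT1 without vehicle replicate 3 and 0.11 for MCM6 without vehicle replicate 1.

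In the group of 6 helicase activation genes, 1 rose. GINS1, a subunit of the GINS complex, had 28.0, 30.0 and 29.5 CPM in vehicle, 31.9, 33.8 and 33.4 CPM under Poria at 20, 100 and 500 µg/mL, and 32.2, 32.5 and 29.1 CPM under Atractylodis at the same doses. Most treated libraries exceeded vehicle but Atractylodis 500 did not, and the change was 0.14 ± 0.05, adjusted p = 0.048, a call that was lost without any of 7 of the 9 libraries, at an adjusted p of up to 0.24 without vehicle replicate 1. GINS2, its partner subunit, had 22.7, 22.8 and 23.6 CPM in vehicle, 22.2, 21.8 and 19.9 CPM under Poria at 20, 100 and 500 µg/mL, and 22.3, 21.8 and 18.4 CPM under Atractylodis at the same doses. Every treated library was below every vehicle library, yet the change of -0.13 ± 0.06, adjusted p = 0.12 did not pass. CDC45, the third part of the active helicase, had 26.8, 28.3 and 27.4 CPM in vehicle, 25.7, 28.2 and 25.9 CPM under Poria at 20, 100 and 500 µg/mL, and 26.2, 24.7 and 22.8 CPM under Atractylodis at the same doses, and its groups overlapped (-0.10 ± 0.06, adjusted p = 0.19). MCM10, GINS3 and GINS4 did not pass, with changes between -0.06 (GINS3) and 0.03 (GINS4).

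Of the 8 clamp, clamp loader and RPA genes, 3 rose and none fell. PCNA, the sliding clamp, had 128, 129.6 and 124 CPM in vehicle, 141, 146 and 141 CPM under Poria at 20, 100 and 500 µg/mL, and 141, 142 and 131 CPM under Atractylodis at the same doses. All treated libraries lay above all vehicle libraries, with a change of 0.14 ± 0.04, adjusted p = 0.01 that was lost without vehicle replicate 3 (adjusted p = 0.084). DSCC1, part of an alternative clamp loader that acts in sister chromatid cohesion, had 11.3, 10.6 and 11.6 CPM in vehicle, 14.0, 13.3 and 11.9 CPM under Poria at 20, 100 and 500 µg/mL, and 14.6, 14.2 and 13.1 CPM under Atractylodis at the same doses. The groups did not overlap, and the change was 0.27 ± 0.07, adjusted p = 0.0055. RFC4, a subunit of the main clamp loader, had 47.1, 50.9 and 47.0 CPM in vehicle, 56.0, 58.3 and 53.2 CPM under Poria at 20, 100 and 500 µg/mL, and 53.2, 53.5 and 50.5 CPM under Atractylodis at the same doses. Only Atractylodis 500 fell within the vehicle range, and the change of 0.16 ± 0.05, adjusted p = 0.015 was lost without vehicle replicate 1 (adjusted p = 0.10) or vehicle replicate 3 (adjusted p = 0.10). The other loader genes RFC2, RFC3 and RFC5 and the single-strand binding genes RPA2 and RPA3 had changes between -0.05 (RFC2) and 0.12 (RPA3), and none passed.

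Both primase subunits rose among the 7 polymerase genes. PRIM2, the large subunit of primase, which lays down RNA primers, had 22.1, 22.5 and 22.7 CPM in vehicle, 26.6, 27.1 and 25.6 CPM under Poria at 20, 100 and 500 µg/mL, and 25.1, 26.5 and 23.7 CPM under Atractylodis at the same doses. The groups did not overlap, and the change was 0.20 ± 0.05, adjusted p = 0.0057. PRIM1, the catalytic subunit, had 20.6, 20.1 and 22.4 CPM in vehicle, 24.7, 23.6 and 22.9 CPM under Poria at 20, 100 and 500 µg/mL, and 22.0, 24.3 and 22.3 CPM under Atractylodis at the same doses. Atractylodis 20 and Atractylodis 500 lay within the vehicle range, and the change of 0.15 ± 0.05, adjusted p = 0.046 was lost without any of 5 libraries, at an adjusted p of up to 0.22 without vehicle replicate 2. POLE2, a subunit of the leading-strand polymerase, had 13.4, 13.2 and 12.9 CPM in vehicle, 15.6, 14.1 and 14.6 CPM under Poria at 20, 100 and 500 µg/mL, and 14.5, 15.3 and 12.7 CPM under Atractylodis at the same doses, and its change of 0.14 ± 0.06, adjusted p = 0.12 did not pass. POLA1, POLA2, POLD1 and POLE did not pass either, with changes between -0.03 (POLE) and 0.06 (POLD1).

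The 3 genes of fragment maturation and the fork checkpoint did not pass. FEN1, the flap endonuclease of Okazaki fragments, had 59.6, 64.0 and 61.1 CPM in vehicle, 64.6, 64.2 and 63.3 CPM under Poria at 20, 100 and 500 µg/mL, and 66.6, 60.4 and 59.3 CPM under Atractylodis at the same doses. LIG1, the ligase that seals them, had 23.4, 25.2 and 26.2 CPM in vehicle, 25.5, 26.8 and 24.1 CPM under Poria at 20, 100 and 500 µg/mL, and 27.8, 23.6 and 22.5 CPM under Atractylodis at the same doses. CLSPN, the checkpoint adaptor claspin, had 43.4, 43.8 and 45.1 CPM in vehicle, 45.3, 46.2 and 44.4 CPM under Poria at 20, 100 and 500 µg/mL, and 41.8, 45.0 and 38.1 CPM under Atractylodis at the same doses. For all 3 the groups overlapped and Atractylodis 500 was the lowest of the 9 libraries, with changes of 0.03 ± 0.04, adjusted p = 0.61 for FEN1, 0.01 ± 0.06, adjusted p = 0.96 for LIG1 and -0.02 ± 0.05, adjusted p = 0.81 for CLSPN.

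The dNTP supply genes held the largest change in each direction among the 48. DUT (chr15:48331011-48343373, plus strand, GRCh38), the dUTPase that keeps uracil out of DNA, had 26.5, 30.3 and 26.1 CPM in vehicle, 33.5, 35.3 and 33.2 CPM under Poria at 20, 100 and 500 µg/mL, and 37.3, 36.5 and 34.3 CPM under Atractylodis at the same doses. Every treated library lay above every vehicle library, and the change was 0.34 ± 0.06, adjusted p = 0.00026. TK1 (chr17:78174075-78187233, minus strand), the S-phase thymidine kinase of the salvage pathway, had 66.0, 66.5 and 67.1 CPM in vehicle, 55.8, 56.3 and 51.8 CPM under Poria at 20, 100 and 500 µg/mL, and 64.0, 54.1 and 48.3 CPM under Atractylodis at the same doses. Every treated library lay below every vehicle library, with Atractylodis 20 closest to vehicle and Atractylodis 500 farthest, and the change was -0.27 ± 0.07, adjusted p = 0.0072.

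RRM2 (chr2:10120698-10131419, plus strand), the regulated subunit of ribonucleotide reductase, had 223, 229 and 221 CPM in vehicle, 223, 229.8 and 228 CPM under Poria at 20, 100 and 500 µg/mL, and 217, 213 and 172 CPM under Atractylodis at the same doses. Poria libraries lay within or just above the vehicle range, the Atractylodis libraries lay below it and Atractylodis 500 was the lowest, and over all treated libraries the change was -0.07 ± 0.08, adjusted p = 0.58. Its partner RRM1 had 162, 166 and 159.7 CPM in vehicle, 175, 178 and 177 CPM under Poria at 20, 100 and 500 µg/mL, and 159, 169 and 157 CPM under Atractylodis at the same doses, with a change of 0.06 ± 0.04, adjusted p = 0.35. Every Poria library lay above every vehicle library for RRM1, while the Atractylodis libraries lay on both sides of the vehicle range. TYMS, thymidylate synthase, had 86.0, 92.2 and 88.8 CPM in vehicle, 96.5, 95.6 and 88.4 CPM under Poria at 20, 100 and 500 µg/mL, and 85.0, 89.2 and 84.0 CPM under Atractylodis at the same doses. Its groups overlapped, and the change was 0.01 ± 0.05, adjusted p = 0.88.

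**Figure D2:**
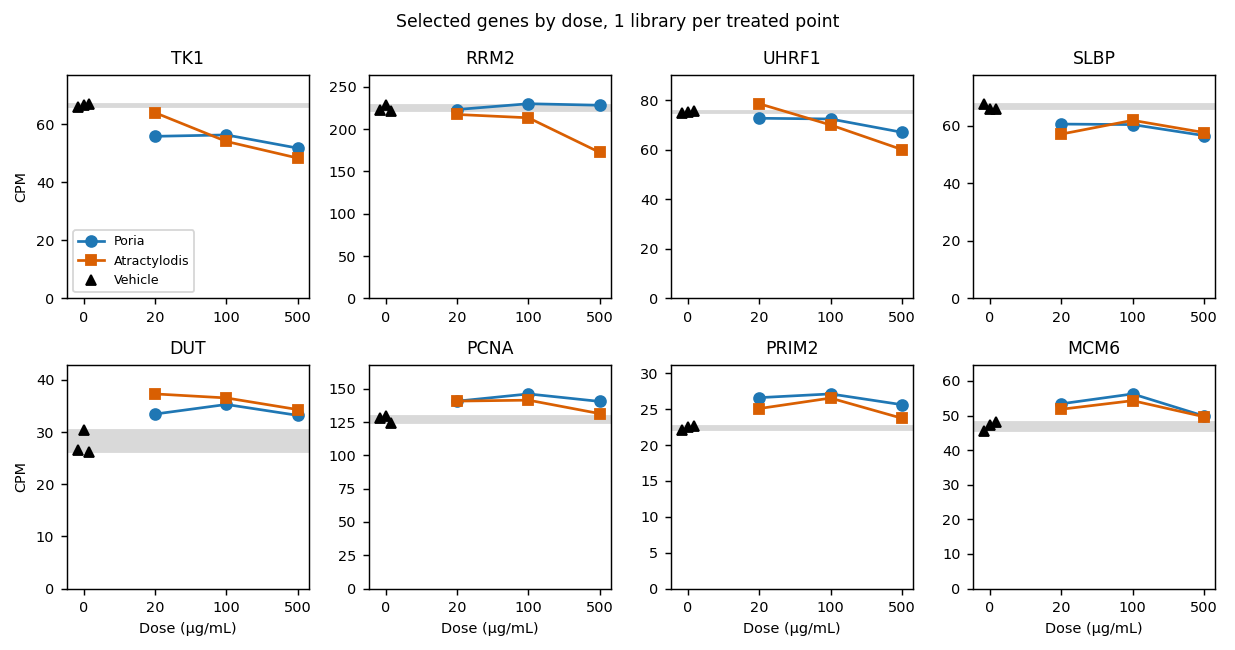
CPM (y axis, from 0) against dose in µg/mL (x axis) for TK1, RRM2, UHRF1, SLBP, DUT, PCNA, PRIM2 and MCM6, with triangles and a grey band for the 3 vehicle libraries, circles for Poria and squares for Atractylodis, 1 library per treated point. TK1 and SLBP lie below the band and DUT, PCNA, PRIM2 and MCM6 above it at every dose, while RRM2 lies below it under Atractylodis, farthest at 500 µg/mL.

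Among the 5 chromatin genes, 2 fell. SLBP, which binds the stem-loop of histone mRNAs, had 67.6, 65.8 and 65.8 CPM in vehicle, 60.6, 60.4 and 56.6 CPM under Poria at 20, 100 and 500 µg/mL, and 57.1, 61.9 and 57.6 CPM under Atractylodis at the same doses. Every treated library lay below every vehicle library, and the change was -0.17 ± 0.04, adjusted p = 0.0033. CHAF1A, the large subunit of the histone chaperone CAF-1, had 42.7, 46.3 and 45.7 CPM in vehicle, 40.4, 40.2 and 41.6 CPM under Poria at 20, 100 and 500 µg/mL, and 44.7, 38.9 and 36.1 CPM under Atractylodis at the same doses. Atractylodis 20 overlapped vehicle, and the change of -0.15 ± 0.05, adjusted p = 0.044 was lost without any of 6 libraries, at an adjusted p of up to 0.16 without vehicle replicate 2. UHRF1, which brings the maintenance DNA methyltransferase to new DNA, had 75.0, 75.2 and 75.7 CPM in vehicle, 72.7, 72.4 and 67.0 CPM under Poria at 20, 100 and 500 µg/mL, and 78.6, 70.0 and 60.1 CPM under Atractylodis at the same doses. Atractylodis 20 stood above the narrow vehicle range and the other 5 treated libraries below it, and the change over all treated libraries was -0.10 ± 0.06, adjusted p = 0.26. CHAF1B and ASF1B had changes of -0.06 and -0.10, which did not pass.

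None of the 4 regulators of S-phase entry passed in treated against vehicle cells. In edgeR CCNE2 was called higher in the lone Poria 100 library, a call lost in DESeq2 and with GC offsets. E2F1, an activating E2F factor, had 37.0, 39.4 and 38.6 CPM in vehicle, 38.8, 37.6 and 36.8 CPM under Poria at 20, 100 and 500 µg/mL, and 41.2, 36.8 and 36.7 CPM under Atractylodis at the same doses. CCNE1, cyclin E1, had 25.3, 24.4 and 24.5 CPM in vehicle, 25.4, 26.2 and 27.3 CPM under Poria at 20, 100 and 500 µg/mL, and 27.4, 23.2 and 23.4 CPM under Atractylodis at the same doses. CCNE2, cyclin E2, had 28.3, 27.5 and 26.8 CPM in vehicle, 29.2, 31.7 and 29.5 CPM under Poria at 20, 100 and 500 µg/mL, and 28.6, 29.4 and 25.8 CPM under Atractylodis at the same doses. The groups overlapped for all 3, with changes of -0.01 ± 0.05, adjusted p = 0.86 for E2F1, 0.04 ± 0.06, adjusted p = 0.64 for CCNE1 and 0.08 ± 0.05, adjusted p = 0.35 for CCNE2. E2F2, with 177 to 254 counts per library, had 5.29, 5.68 and 4.34 CPM in vehicle, 5.22, 4.89 and 5.06 CPM under Poria at 20, 100 and 500 µg/mL, and 4.78, 4.95 and 4.42 CPM under Atractylodis at the same doses, and its change was -0.06 ± 0.09, adjusted p = 0.67. The vehicle libraries held both its lowest and its highest value.

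The changes ran with the GC content of the transcripts. Across the 48 genes, the Spearman correlation of the change in treated against vehicle cells with GC content was -0.60, and it was -0.298 across 18214 tested genes with a GC value; genes within a library share its depth and base composition. The 8 genes that rose had a median GC content of 42.4% (40.7% to 45.4%), the 5 that fell 57.6% (50.7% to 64.9%), and the 35 others 49.1%. With GC content and transcript length as offsets, 6 genes rose and 2 fell, and the calls for MCM6, PRIM1, GINS1, MCM7, CDT1 and CHAF1A were lost. DUT, DSCC1, PRIM2, TK1 and SLBP passed under every alternative applied gene by gene, GC offsets and the omission of any single library included. The cause of the relation with GC content was not tested.

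**Figure D3:**
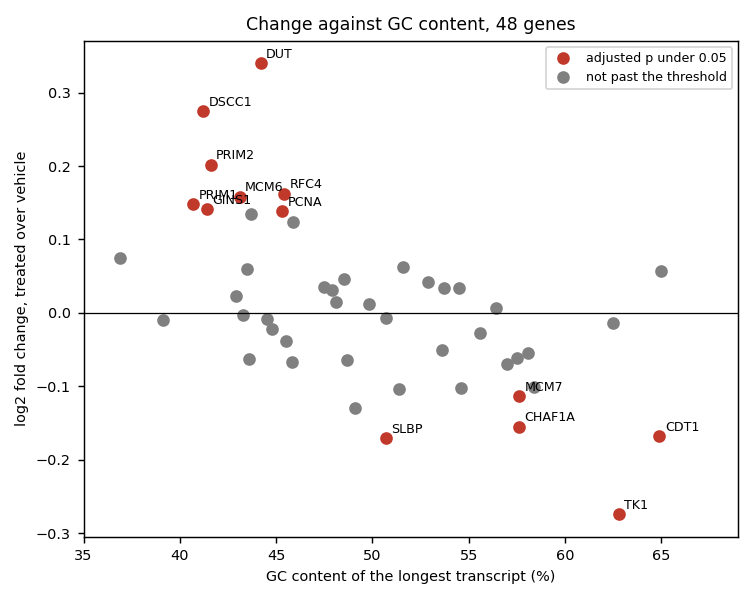
Log2 fold change of treated over vehicle (y axis) against GC content of the longest transcript in percent (x axis) for the 48 genes, red where the adjusted p is under 0.05 and grey where it is not. The 8 genes that rose lie at 40.7% to 45.4% GC and the 5 that fell at 50.7% to 64.9%.

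Across the dose steps (0 for vehicle, then 1, 2 and 3 for 20, 100 and 500 µg/mL), 5 genes fell with Poria and none rose, or 10.4% falling against 11.6% of all tested genes and none rising against 9.16% (20.8% in either direction). The falling genes were TK1, with a slope of -0.13 ± 0.02, adjusted p = 0.00049 per step, SLBP (-0.07 ± 0.02, adjusted p = 0.027), MCM7 (-0.05 ± 0.02, adjusted p = 0.038), UHRF1 (-0.06 ± 0.02, adjusted p = 0.044) and GINS2 (-0.07 ± 0.02, adjusted p = 0.049). Only the TK1 slope passed with any library left out. The Poria count was 1 without any 1 of the vehicle libraries, 2 without Poria 100 and 1 with GC offsets, and no gene passed with dose in µg/mL in place of the step. Without Poria 500, 4 genes rose and 1 fell.

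With Atractylodis, 11 genes fell over the dose steps and none rose, or 22.9% falling against 10.5% of all tested genes, of which 8.49% rose and 19% changed in either direction. The steepest were TK1, at -0.14 ± 0.02, adjusted p = 0.00044 per step, RRM2 (-0.10 ± 0.02, adjusted p = 0.0029), ASF1B (-0.10 ± 0.03, adjusted p = 0.015), a histone chaperone, CDT1 (-0.10 ± 0.02, adjusted p = 0.0079) and CHAF1A (-0.09 ± 0.02, adjusted p = 0.0089). UHRF1, GINS2, CDC45, MCM7, MCM5 and SLBP fell as well, with slopes between -0.09 (UHRF1) and -0.06 (SLBP). In all, 38 of the 48 slopes were below 0 and the median was -0.03, against 0.0033 over all genes. These calls rested on the highest dose: without the Atractylodis 500 library TK1 alone passed, and 2 genes passed with dose in µg/mL in place of the step. With GC and length offsets 8 genes fell, and the calls for ASF1B, CDT1, MCM7, MCM5 and SLBP were lost.

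**Figure D4:**
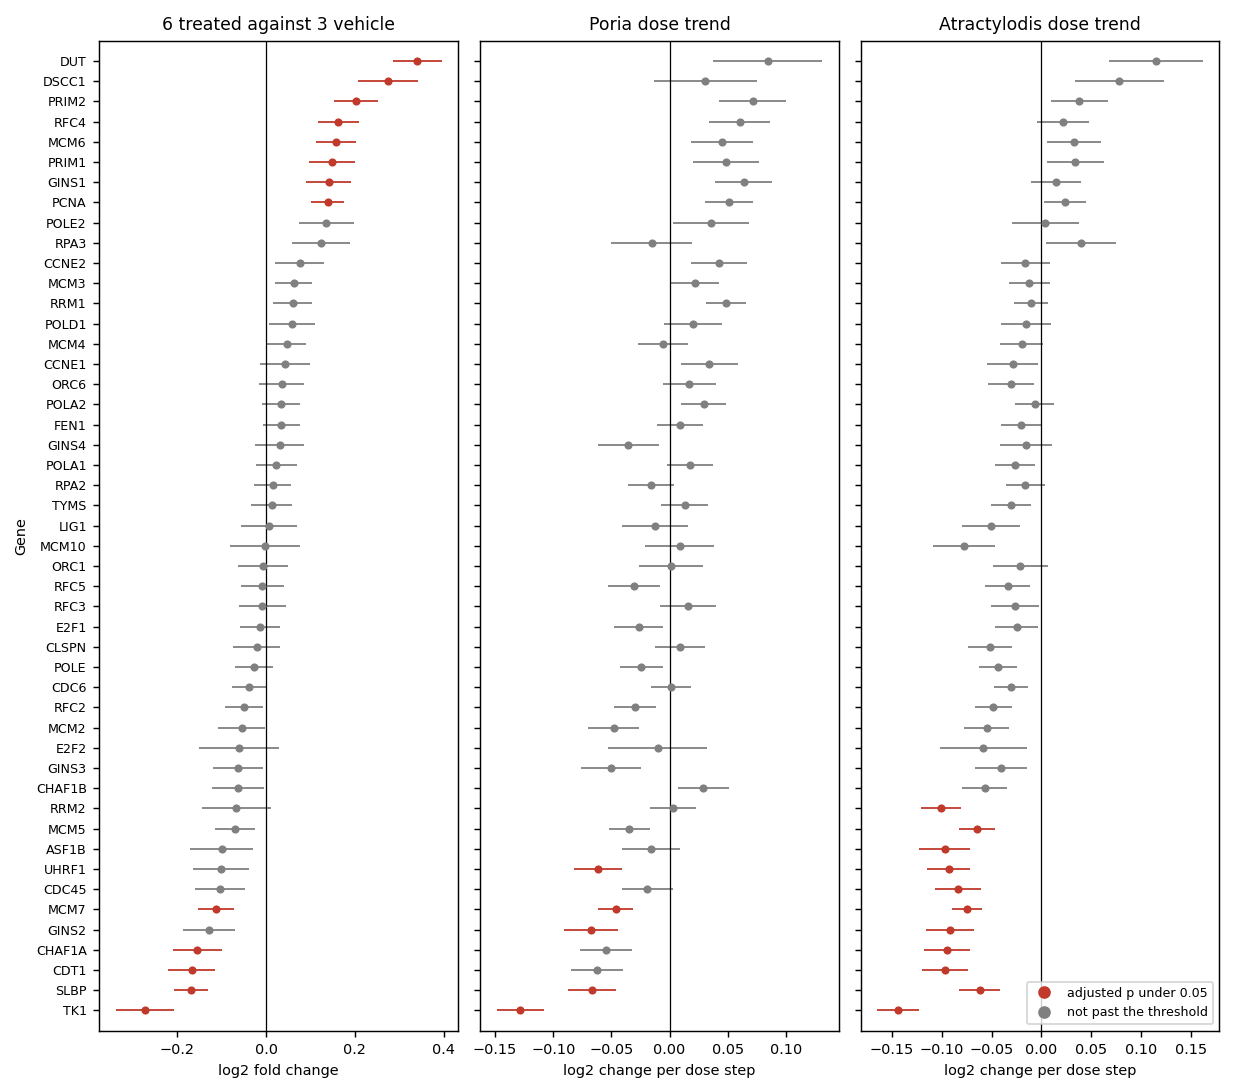
Log2 change ± SE of the 48 genes (rows, ordered by the first panel) for 6 treated against 3 vehicle libraries, and per dose step for Poria and for Atractylodis, red where the adjusted p is under 0.05. In both trends the genes past the threshold, 5 for Poria and 11 for Atractylodis, lie below 0.

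In slopes across the treated doses alone, which do not use the step from vehicle although the vehicle libraries add to the estimate of the spread, 8 genes fell with Atractylodis dose and none rose, or 16.7% falling against 2.54% of all tested genes, of which 1.5% rose and 4.04% changed in either direction. TK1 (-0.20 ± 0.03, adjusted p = 0.00073 per step), UHRF1 (-0.19 ± 0.03, adjusted p = 0.00069) and RRM2 (-0.17 ± 0.03, adjusted p = 0.005) were the steepest, followed by CHAF1A, CDT1, MCM5, POLE and RFC2. Of the 48 slopes, 44 were below 0, with a median of -0.08. The count was 0 without Atractylodis 500, 2 without Atractylodis 20, 15 without Atractylodis 100, 17 without both Poria 20 and Atractylodis 100 and 5 without any 1 of the vehicle libraries. Shares over all genes in these reduced sets are not given, so the counts show only how far the calls moved. With GC and length offsets the count was 5, and the calls for CHAF1A, CDT1, MCM5, POLE and RFC2 were lost, those for POLE and RFC2 also in DESeq2. Within the Poria libraries no gene passed in edgeR, against 2.45% of all genes, and at an unadjusted p under 0.05 there were 1 rising and 5 falling genes, beside 2821 of all 18356 genes in either direction.

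At single doses against vehicle, where a lone treated library was given the spread of the vehicle libraries, the counts depended on the tool. The DESeq2 counts are given without a share over all genes, so they are no result about the set. DESeq2 called 0, 1 and 1 of the 48 genes in Poria 20, 100 and 500 and 1, 2 and 5 in Atractylodis 20, 100 and 500, and the edgeR counts follow. In Poria 20, 10 genes rose and 2 fell, or 25% of the 48 against 19.9% of all tested genes, of which 8.42% rose and 11.4% fell. In Atractylodis 20, 4 rose and 1 fell, or 10.4% against 17.5% of all genes, of which 7.51% rose and 10% fell. The Atractylodis 20 count was 11 with GC offsets and 12 without vehicle replicate 2. In Poria 100, 11 rose and 3 fell, or 29.2% against 25.5% of all genes, of which 11.2% rose and 14.3% fell. In Atractylodis 100, 9 rose and 4 fell, or 27.1% against 25.2% of all genes, of which 11.3% rose and 13.9% fell. In Poria 500, 6 rose and 8 fell, or 29.2% against 31.5% of all genes, of which 14.4% rose and 17.1% fell. In Atractylodis 500, 2 rose and 17 fell, or 39.6% against 31% of all genes, of which 14.4% rose and 16.6% fell. The falling share of the 48 genes in that library was 35.4%. With GC offsets the Poria 100 split was 10 rising and 0 falling.

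The 17 genes that fell in Atractylodis 500 came from every role group other than S-phase entry. TK1 fell by 0.46 ± 0.05, adjusted p = 4.2e-08, RRM2 by 0.38 ± 0.04, adjusted p = 5.3e-08, ASF1B by 0.37 ± 0.06, adjusted p = 2e-05, MCM10, a helicase activation factor, by 0.34 ± 0.06, adjusted p = 0.00017 and UHRF1 by 0.33 ± 0.04, adjusted p = 2.9e-06. CDT1, GINS2, CHAF1A, CDC45, MCM7, CHAF1B, MCM5, CLSPN, SLBP, RFC2, MCM2 and POLE fell by less, down to 0.13 ± 0.04, adjusted p = 0.023 for POLE. All 5 chromatin genes fell. DUT and DSCC1 rose in the same library, at 0.31 ± 0.07, adjusted p = 0.0031 and 0.23 ± 0.08, adjusted p = 0.037. The DSCC1 call was lost with GC offsets (adjusted p = 0.17) and without vehicle replicate 2 (adjusted p = 0.077), and the DUT call in DESeq2 (adjusted p = 0.14). Under every alternative applied gene by gene, DESeq2 included, the falls of TK1, RRM2, MCM7, ASF1B and UHRF1 passed.

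The rank of the libraries restates the low levels in Atractylodis 500 from the same counts and is no separate support. Atractylodis 500 was the lowest of the 9 libraries for 28 of the 48 genes, or 58.3%, against 14.2% of all tested genes, and Atractylodis 20 was the highest for 17, or 35.4%, against 11.3%. Atractylodis 500 lay below Atractylodis 20 for 44 genes (49.6% of all genes did so), and Poria 500 below Poria 20 for 37 (50.3%). Without TMM factors Atractylodis 500 was the lowest for 15 genes, against 10.5% of all genes, and with GC offsets for 22, against 15%. The summed CPM of the 48 genes was 2669, 2739 and 2692 in vehicle, 2774, 2802 and 2680 under Poria at rising dose, and 2759, 2688 and 2463 under Atractylodis. Of a list of 24 mitotic genes, 19 fell in the same library and 5 did not pass, with a median change of -0.29, beside the 16.6% of all genes that fell.

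**Figure D5:**
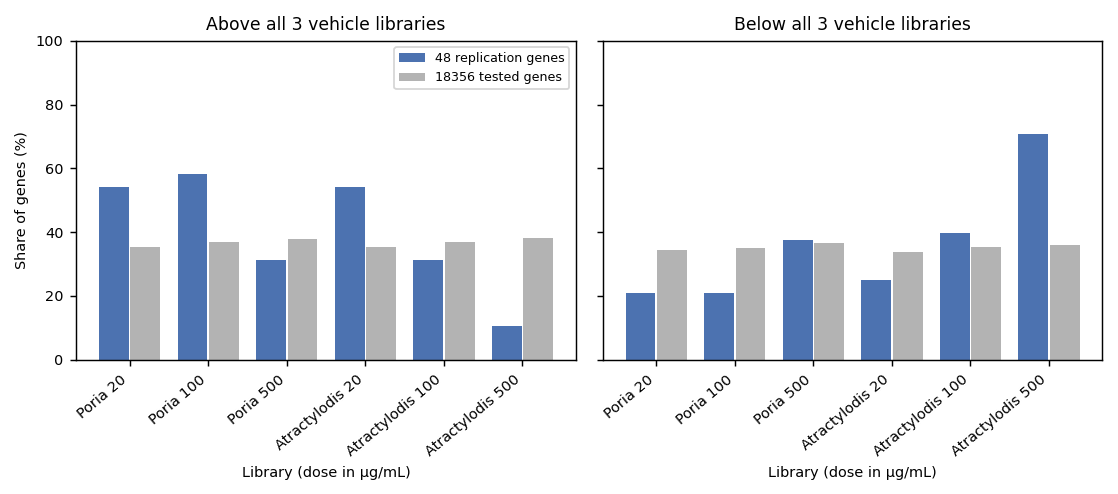
Share of genes in percent (y axis) above all 3 vehicle libraries (left) and below them (right) in each treated library (x axis, dose in µg/mL), for the 48 genes and for the 18356 tested genes. In Atractylodis 500, 70.8% of the 48 genes lie below vehicle against 35.9% of all genes, and in Poria 100, 58.3% lie above against 37%.

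Between the extracts, the dose slopes differed for 1 gene, RRM2, against 1.16% of all tested genes. Its Poria slope minus its Atractylodis slope was 0.10 ± 0.02, adjusted p = 0.028, and the call was lost without Poria 100 (adjusted p = 0.059), Poria 500 (adjusted p = 0.44) or Atractylodis 500 (adjusted p = 0.67). At matched doses no gene differed between Poria and Atractylodis in edgeR, against 0.163% of all genes, while at an unadjusted p under 0.05 there were 12 genes higher with Poria and 1 lower, beside 2526 of all 18356 genes in either direction. DESeq2 called 2 of the 48 genes, both higher with Poria, among 153 genes in all. Without both Poria 20 and Atractylodis 100, where the 500 µg/mL pair alone sets the difference, 9 of the 48 were called higher with Poria, among 2033 genes in all, and the dose slopes differed for 1 gene. The difference was above 0 for 40 of the 48 genes, with a median of 0.05. At the highest dose, Atractylodis 500 lay below Poria 500 for 40 genes (49.9% of all genes did so).

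Other genes of the same processes, from lists that do not overlap the 48, are counted here in treated against vehicle cells, beside the 25.3% of all tested genes that passed in either direction (12% rising and 13.3% falling). Of 16 further origin genes 3 rose and none fell, among them WDHD1, a polymerase alpha adaptor, at 0.31 ± 0.06, adjusted p = 0.00076, and the origin-firing kinase CDC7 at 0.16 ± 0.05, adjusted p = 0.018. Of 21 further fork genes 4 rose and 4 fell, with CHTF18, the partner of DSCC1 in its clamp loader, at 0.33 ± 0.06, adjusted p = 0.00044 and POLD2, a subunit of polymerase delta, at -0.26 ± 0.04, adjusted p = 0.00012. Of 28 further nucleotide synthesis genes 2 rose and 4 fell, with RRM2B, the p53-regulated ribonucleotide reductase subunit, at 0.21 ± 0.04, adjusted p = 0.0024 and SHMT2, a mitochondrial serine hydroxymethyltransferase, at -0.22 ± 0.05, adjusted p = 0.0032. Of 17 further E2F and RB pathway genes 2 rose and 4 fell, with SKP2, which targets the inhibitor p27 for degradation, at 0.24 ± 0.05, adjusted p = 0.0037, CDKN1B, which encodes p27, at 0.23 ± 0.06, adjusted p = 0.015 and the repressor E2F7 at -0.21 ± 0.05, adjusted p = 0.0074.

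Of 24 mitotic genes tested, 12 fell, 1 rose and 11 did not pass in treated against vehicle cells, beside 13.3% of all genes falling and 12% rising. Their median change was -0.17, and 16 fell over the Atractylodis dose steps. FOXM1, the transcription factor of G2 and M genes, had 204, 197 and 208 CPM in vehicle, 174, 164 and 168 CPM under Poria at rising dose and 169, 165 and 151 CPM under Atractylodis, a change of -0.30 ± 0.04, adjusted p = 6.5e-05. Every treated library lay below every vehicle library. CCNB1, cyclin B1, changed by -0.22 ± 0.03, adjusted p = 0.00019, while CDK1, its kinase, rose by 0.13 ± 0.05, adjusted p = 0.042.

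Some counts may include reads of neighbours or copies. The kit keeps strand, but whether counting used it is not given in the sources used here, so genes that overlap a well expressed neighbour are uncertain. The main ones on the opposite strand are RFC4 (with EIF4A2), GINS2 (GSE1), CHAF1A (UBXN6), CCNE2 (NDUFAF6 and INTS8), MCM2 (TPRA1), RFC5 (WSB2), RPA3 (UMAD1) and FEN1 (TMEM258). On the same strand they are PRIM1 (NACA), FEN1 (FADS2) and CHAF1B (MORC3). DUT has 8 annotated pseudogenes, which held counts equal to 0.336% of its own, and RRM2 has 3, with 0.132%.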

How the data were processed

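RNA-seq of 9 libraries was used. The authors deposited a table of expected counts, estimated per gene with RSEM. Per the submitters' processing notes, the tools were FastQC 0.11.9, Trim Galore 0.6.5, STAR 2.7.3a and RSEM 1.3.3 with the hg38 genome. The annotation release is not given in the sources used here. Of 279 columns in the table, 270 are not of these samples and were not used. Expected counts were rounded to whole numbers, and symbols, positions and GC content came from GENCODE 29 (57055 genes). Reads without molecular identifiers are not independent molecules, so counting error alone understates the spread. The small number of libraries limits precision, and counting error adds to this for genes with few counts, such as E2F2 at 177 to 254.

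Models were fitted in R 4.3.3 with edgeR 4.0.16, using TMM scaling, a low-count filter (count minimum 10, total minimum 15), robust quasi-likelihood fits and Benjamini-Hochberg adjustment at 0.05 over 18356 genes, with 42319 genes not tested. Each SE was taken as the size of the log2 change over the root of its F statistic. Residual degrees of freedom were 6 for the dose trends, 7 for treated against vehicle, 4 for slopes within treated libraries, 4 for matched doses and 2 for single doses, with a common biological coefficient of variation of 4.97%, 5.49%, 3.26%, 4.11% and 2.58% in that order. The fits were also run on simulated data in which every gene had the common coefficient of variation of its fit. That run cannot test the spread assumed for a lone treated library. Alternatives were DESeq2 1.42.0, RLE factors, no filter, GC and length offsets, dose in µg/mL and the omission of each library, and the rank of libraries under other scalings and the omission of Poria 20 and Atractylodis 100 together were added after seeing the data. Pairs of libraries were checked for copies with a chi-square comparison of counts.

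The 48 genes and the other lists were chosen with earlier results of these data known. Per-library values are given for 12 fixed genes (MCM2, CDC6, CDC45, PCNA, POLE2, TYMS, RRM2, UHRF1, SLBP, E2F1, CCNE1 and CCNE2) and for up to 3 genes per role with the smallest p in treated against vehicle. Further genes past the threshold are named, most with their change or a range of changes. Calls at single doses other than Atractylodis 500 are given as counts. MCM3, MCM4, GINS4, RPA3, POLA1, POLE2, RRM1 and CCNE2 were called in edgeR only at such single doses.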

Additional observations from a re-analysis of the deposited data

Results flagged for a closer look

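Among the 6 treated libraries, 2 of the 48 genes had a single library far from the rest, and both times it was Atractylodis 500. MCM10 had 20.4 CPM there, against 26.3 CPM in the nearest treated library, a gap of 0.773 of the range of the 6 libraries. RRM2 had 172 CPM there, against 213 CPM in the nearest, a gap of 0.711 of the range. Chance marks about 1 in 20 groups in this way, and the 6 libraries differ in extract and dose, so they are not replicates. The dose slopes of RRM2 differed between the extracts by 0.1034 log2 per step, Poria minus Atractylodis, by the test of the difference in the trend fit.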

How the results depend on the processing

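No paired analysis was possible because each treated group holds 1 library, numbered 2, so the groups share fewer than 2 replicate numbers. No call reversed under any alternative applied gene by gene. Of 115 calls of single genes, 112 passed with RLE factors, 99 without the filter, 66 with GC and length offsets and 66 under the omission of any library, and of 104 with a DESeq2 value 44 passed in DESeq2. Of 25 trend and slope calls 6 passed with dose in µg/mL. The causes were not tested. Counts of called genes that moved were as follows, given without the share over all genes and so no result about the set. Without the filter they were 8 for the Poria trend, 3 for the difference of trends, 13 for the Atractylodis slope within treated libraries and 2 for matched doses. With GC offsets they were 1 for the Poria trend, 8 for treated against vehicle, 5 for the Atractylodis slope within treated libraries and 11 for Atractylodis 20. With dose in µg/mL they were 0 for the Poria trend, 2 for the Atractylodis trend and 5 for the Atractylodis slope within treated libraries. DESeq2 called 2 at matched doses, 0 in Poria 20, 1 in Poria 100, 1 in Poria 500, 1 in Atractylodis 20, 2 in Atractylodis 100 and 5 in Atractylodis 500. Without both Poria 20 and Atractylodis 100, chosen after seeing the data, they were 6 for treated against vehicle, 17 for the Atractylodis slope within treated libraries and 9 at matched doses. Leaving out 1 library gave 1 to 7 for the Poria trend, 1 to 13 for the Atractylodis trend, 0 to 2 for the difference of trends, 7 to 13 for treated against vehicle, 0 to 15 for the Atractylodis slope within treated libraries, 0 to 1 at matched doses and 5 to 12 in Atractylodis 20. Each treated condition has 1 library, which limits every single-dose result.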
